A study of Mus musculus with 12 samples.

Results

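Busulfan, an alkylating drug, was compared with no treatment in mouse spleen by RNA sequencing of bulk tissue. The comparison takes 6 of the 12 libraries of the study, 3 from mice given busulfan at 40 mg/kg once and 3 from untreated controls, and was made over all 15079 genes that passed a filter on low counts. The other 6 libraries, which share no library with this comparison, came from mice given alginate oligosaccharides (AOS, fragments of alginate, a polymer from seaweed) at a dose of 10 mg/kg over 5 weeks, 3 without and 3 after the same dose of busulfan, and serve as a second pair of groups with and without the drug. All groups carry the strain label IRC and no genetic change is named. The sources used here do not give sex, age or the interval between injection and sampling. Nor do they say that each library is a different animal, so p-values cover the spread among these libraries, part of which may be technical. The busulfan group is coded SBA0 in the labels and B0 in the design text, and both were taken to mean busulfan with no AOS.

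Busulfan carries a pair of reactive groups that alkylate DNA and link its strands, and is given before marrow transplants because it kills blood-forming stem cells. Crosslinked DNA is repaired through the Fanconi pathway and activates the transcription factor p53, whose targets halt the cell cycle, repair DNA or start cell death. The mouse spleen holds lymphocytes in its white pulp, macrophages that clear red cells in its red pulp, and, unlike the adult human spleen, precursors of red cells, platelets and granulocytes.

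The 6 libraries held 15051297 to 16241883 counts, so that 3 counts, the most that a count of 0 leaves possible, equal 0.185 to 0.199 CPM (counts scaled to a library total of 1000000). Such limits cover counting error only. Markers fixed for spleen were present in every library. Ptprc, the leukocyte antigen CD45, stood at 1118, 1109 and 1048 CPM in control 1, 2 and 3 and 883, 1033 and 812 CPM in busulfan 1, 2 and 3. Spic, the transcription factor of red pulp macrophages, stood at 37.8, 38.7 and 45.9 CPM in the controls and 40.6, 41.6 and 55.6 CPM with busulfan. Some libraries stood apart in transcripts of neighbouring tissues. The 10 adipocyte genes took 0.0485, 0.00762 and 0.00510% of counts in control 1, 2 and 3 against 0.00891, 0.00460 and 0.00317% in busulfan 1, 2 and 3, and the 23 pancreatic acinar genes took 0.00194, 0.0200 and 0.00261% and 0.0979, 0.0159 and 0.00298%. In the AOS libraries the acinar share was 0.299, 4.498 and 0.530%. The part of these tissues in the results was not tested beyond leaving out libraries.

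Busulfan left a small set of called genes. Genes of neutrophils and eosinophils, targets of p53 and genes of the fasting and glucocorticoid response were among those that rose, and genes of B cells, T cells and natural killer (NK) cells and enzymes that build surface glycans were among those that fell. In all, 71 of 15079 genes (0.471%) passed at an adjusted p under 0.05 in edgeR's quasi-likelihood test with Benjamini-Hochberg adjustment, 20 higher (0.133%) and 51 lower (0.338%). The median size of a called difference was 1.35 on the log2 scale for the genes that rose and 0.58 for those that fell, and 20 of the 71 differed by more than a factor of 2. In each of the 71 the 3 busulfan libraries lay all above or all below the 3 controls, which the choice of the genes on these libraries favours. Over all genes this held for 23.6%. Busulfan 2 was the busulfan library nearest to the controls in 53 of the 71.

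The count of 71 moved with single libraries. In edgeR it was 0 without control 1, without control 2 or without AOS 1, which takes part only through normalisation and the estimate of the spread, while 2600, 2027 and 3073 genes had an unadjusted p under 0.05 in these fits against 3109 (20.6%) with all libraries. It was 1 without busulfan 3, 4 without busulfan 1, 8 without busulfan with AOS 1, 10 without AOS 2, 20 without busulfan with AOS 3, 26 without busulfan with AOS 2, 31 without AOS 3, 53 without control 3 and 470 without busulfan 2. It was 0 again when the 6 libraries compared were fitted alone, with 2543 genes at an unadjusted p under 0.05. DESeq2 called 902 genes, 378 higher and 524 lower, with all 71 among them. The DESeq2 counts of single lists are to be read against these totals. Their counts at an unadjusted p under 0.05 in edgeR are to be read against 9.1% of all genes higher and 11.5% lower. Limma on log2 FPKM values called 18 or 14 with a pseudocount of 1 or 0.1. The 69 called genes with a symbol kept their sign in all 21 of these and the other alternatives. Since the groups did not overlap in any of the 71, refits of the same libraries could hardly turn a sign.

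**Figure D1:**
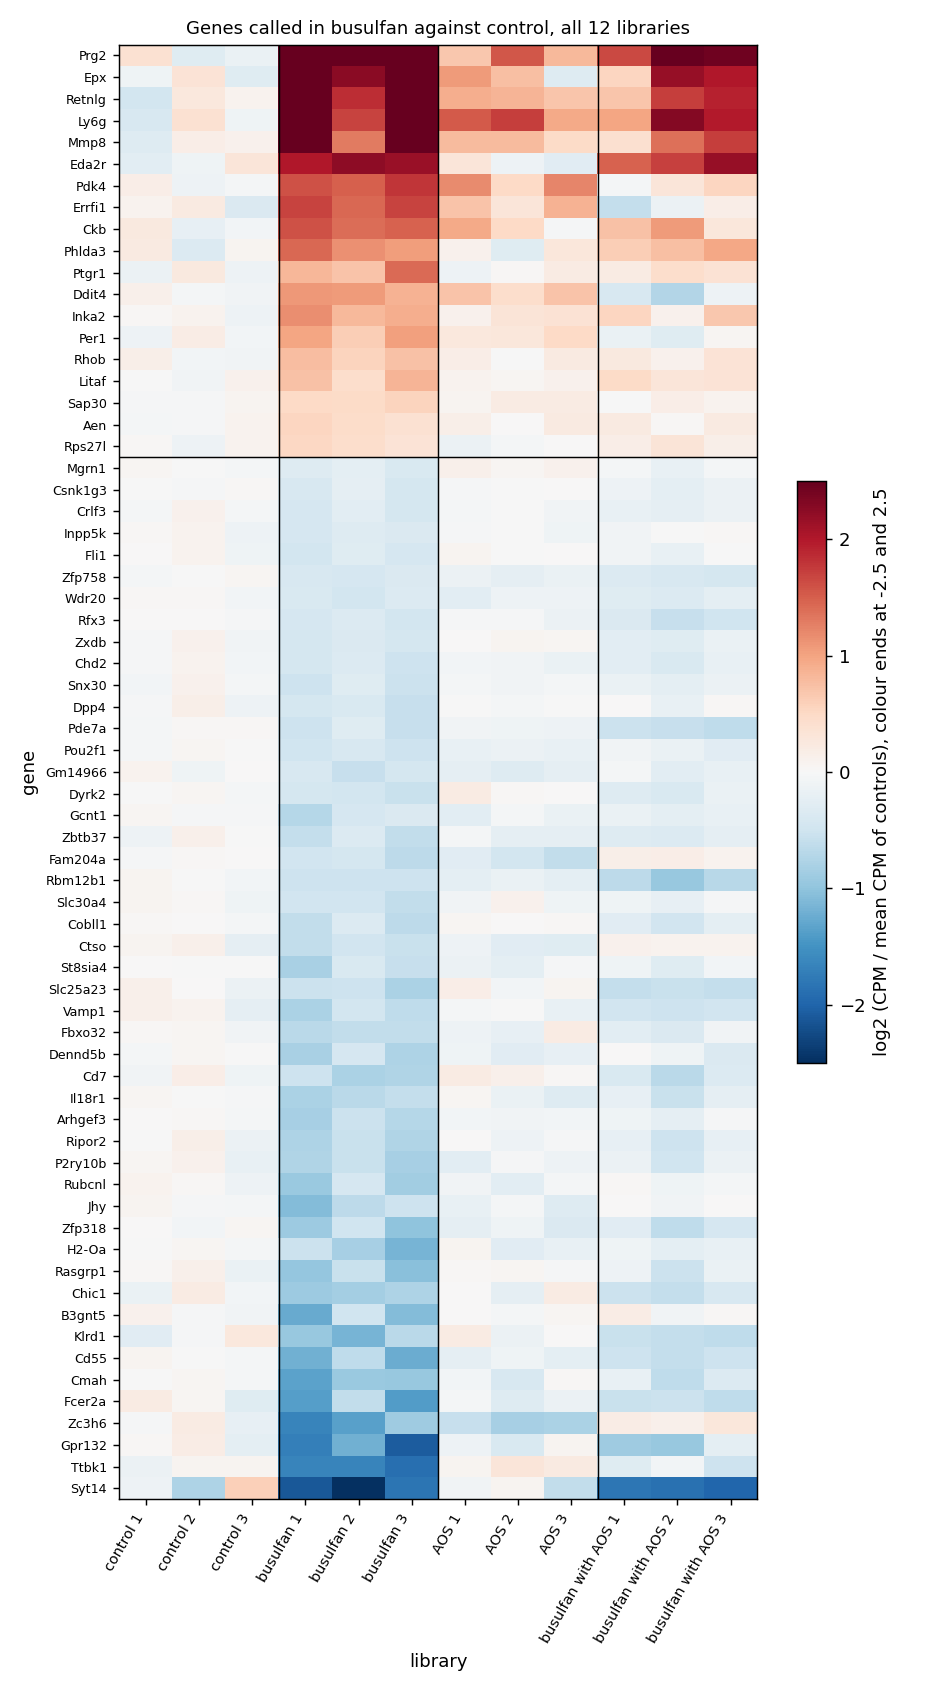
Level of 67 of the called genes (rows) in the 12 libraries (columns), as log2 of CPM over the mean CPM of the 3 controls, with red above and blue below the controls and the colour ending at 2.5 in either direction. The 3 busulfan libraries are red in the upper block and blue in the lower block throughout, as the choice of the genes fixes.

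Neutrophil granule genes had the largest median shift of the 45 lists examined. The lists were chosen with earlier results of these data known, so the shares of all genes beside their counts only describe them. The 18 neutrophil precursor granule genes code for the enzymes and antimicrobial proteins that developing neutrophils pack into granules. Of these, 2 were called higher (0.133% of all genes) and 0 lower, and all 18 had a log2 fold change above 0 (48.7% of all genes). In 14 the groups did not overlap in that direction (11% of all genes). The median log2 fold change of the list was 2.46 against -0.01 over all genes. Mmp8, the neutrophil collagenase, stood at 8.36, 11.8 and 11.3 CPM in control 1, 2 and 3 and 72.9, 25.7 and 155 CPM in busulfan 1, 2 and 3 (log2 fold change 3.01 ± 0.55 (SE), adjusted p = 0.0486). Ly6g, the surface protein by which mouse neutrophils are sorted, stood at 1.15, 1.98 and 1.41 CPM in the controls and 11.8, 4.87 and 25.6 CPM with busulfan (log2 fold change 3.21 ± 0.57 (SE), adjusted p = 0.0463). Both rose in each busulfan library, least in busulfan 2. Each of these calls was kept in 1 of 12 fits that left out a library.

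The promoters of both called genes are shown because they carry short sequences bound by factors of granulocyte development. The windows run from 250 bases before to 50 bases after a RefSeq start site (assembly GRCm38.p6, plus strand), and capitals mark TTNNGCAA, a loose form of the C/EBP site, and GAGGAA, the core bound by PU.1, on either strand. The Mmp8 window lies at chr9:7558179-7558478 and that of Ly6g at chr15:75155011-75155310. A second RefSeq window of Ly6g, at chr15:75155079-75155378, is not shown and holds GAGGAA but no TTNNGCAA.
Mmp8: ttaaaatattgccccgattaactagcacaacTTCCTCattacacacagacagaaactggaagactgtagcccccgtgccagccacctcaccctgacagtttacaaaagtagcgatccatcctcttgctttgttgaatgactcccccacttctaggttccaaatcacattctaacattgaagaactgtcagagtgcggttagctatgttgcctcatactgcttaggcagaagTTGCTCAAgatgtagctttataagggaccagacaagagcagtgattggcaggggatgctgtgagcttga
Ly6g: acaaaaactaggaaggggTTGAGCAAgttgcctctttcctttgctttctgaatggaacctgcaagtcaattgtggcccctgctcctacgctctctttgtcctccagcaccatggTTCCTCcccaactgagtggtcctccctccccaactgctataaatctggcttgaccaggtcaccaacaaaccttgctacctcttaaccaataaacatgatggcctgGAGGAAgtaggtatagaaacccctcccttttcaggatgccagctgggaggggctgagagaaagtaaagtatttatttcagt
TTNNGCAA occurs in 44.4% of the 18 windows found for the precursor granule genes against 10.8% of 32851 windows of all genes, and GAGGAA in 66.7% against 28.3%. The 2 motifs do not overlap in these windows, and the palindrome TTGCGCAA, a special case of TTNNGCAA found in 0.183% of all windows, occurs in none of the 18. In the 16 windows found for mature neutrophil genes, TTNNGCAA occurs in 12.5% and GAGGAA in 62.5%. A match is a description of the letters and not a binding site.

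Other members did not pass and gave values in the same order of libraries. Camp, the antimicrobial peptide cathelicidin, stood at 31.9, 59.1 and 34.9 CPM in the controls and 284, 108 and 578 CPM with busulfan (log2 fold change 2.95, adjusted p = 0.0565). Lcn2, which binds bacterial iron carriers, stood at 24.4, 46.5 and 29.7 CPM in the controls and 204, 76.97 and 429.7 CPM with busulfan. Ltf, lactoferrin, stood at 52.9, 106 and 67.5 CPM in the controls and 405, 172 and 990.4 CPM with busulfan. Chil3, a chitinase-like protein, stood at 58.6, 95.5 and 71.2 CPM in the controls and 383, 154 and 955 CPM with busulfan. Elane, neutrophil elastase, and Mpo, myeloperoxidase, mark an earlier step and were chosen after their values were seen. Elane stood at 13.2, 33.6 and 16.9 CPM in the controls and 97.5, 34.5 and 187 CPM with busulfan (log2 fold change 2.33, adjusted p = 0.0724). Mpo stood at 35.05, 74.6 and 42.8 CPM in the controls and 181, 69.2 and 406 CPM with busulfan (log2 fold change 2.11, adjusted p = 0.0886), so that busulfan 2 lay within the controls for Mpo. In all 18 genes busulfan 3 was the highest and busulfan 2 the lowest of the 3 busulfan libraries, an order that busulfan 2 takes in 31.2% of all genes at the low end. The 18 genes together took 0.0448, 0.0862 and 0.0550% of counts in control 1, 2 and 3 and 0.293, 0.118 and 0.696% in busulfan 1, 2 and 3. Without busulfan 2 all 18 were called, where that fit called 220 genes higher in total. With DESeq2 it was 17, where 378 genes were called higher in total, and without control 1 or busulfan 3 none. In bulk tissue more cells of a type and more RNA per cell cannot be told apart.

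Genes of mature neutrophils held 1 call, higher (0.133% of all genes). Of 18 tested, Retnlg, a resistin-like protein secreted by granulocytes, was called higher, 10 had groups that did not overlap with busulfan higher (11% of all genes), and the median log2 fold change was 1.62. Retnlg stood at 5.298, 8.73 and 7.74 CPM in control 1, 2 and 3 and 75.04, 26.2 and 124 CPM in busulfan 1, 2 and 3 (log2 fold change 3.37 ± 0.51 (SE), adjusted p = 0.0299). S100a8 and S100a9, which form the calcium-binding protein calprotectin of neutrophil cytoplasm, did not pass (adjusted p = 0.0586 for both). S100a8 had values of 78.6, 146 and 102 CPM in the controls and 538, 239 and 1229 CPM with busulfan. Mrgpra2a and Mrgpra2b, near-identical receptors whose reads may be shared, had log2 fold changes of 2.82 and 2.85 (adjusted p = 0.0571 and 0.0576). Without busulfan 2, 10 of the 18 were called, where that fit called 220 genes higher in total, and without control 1 or busulfan 3 none.

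A pair of eosinophil granule genes rose as well. Of 10 eosinophil genes, 2 were called higher (0.133% of all genes), 7 had groups that did not overlap with busulfan higher (11% of all genes) and 1 with busulfan lower (12.6%), and the median log2 fold change was 1.14. Prg2, major basic protein, stood at 2.04, 1.27 and 1.41 CPM in control 1, 2 and 3 and 22.2, 9.43 and 36.6 CPM in busulfan 1, 2 and 3 (log2 fold change 3.84 ± 0.52 (SE), adjusted p = 0.0248). Epx, eosinophil peroxidase, stood at 0.511, 0.701 and 0.448 CPM in the controls and 6.58, 2.63 and 11.7 CPM with busulfan (log2 fold change 3.64 ± 0.61 (SE), adjusted p = 0.0436). Of 12 fits that left out a library, 7 kept the call of Prg2 and 1 that of Epx. Ear1 and Ear6, ribonucleases of eosinophil granules that belong to a family of close copies, did not pass (adjusted p = 0.0514 and 0.0565). Ear1 stood at 0.319, 0.510 and 0.128 CPM in the controls and 4.41, 1.48 and 6.33 CPM with busulfan. Ear6 had 0, 0.319 and 0.128 CPM in the controls, of which control 1 and control 3 are under 3 counts, and 2.17, 1.15 and 3.04 CPM with busulfan. Il5ra, the interleukin 5 receptor chain that eosinophils and some B cells carry, went the other way without passing, from 8.49, 7.71 and 6.78 to 3.77, 5.26 and 4.87 CPM (log2 fold change -0.72, adjusted p = 0.0943).

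Basophil and monocyte genes held no call. Among 10 basophil and mast cell genes, edgeR called 0 and DESeq2 called 3 higher and 0 lower. In edgeR 4 higher (9.1% of all genes) and 0 lower (11.5%) had an unadjusted p under 0.05. In 4 the groups did not overlap, with busulfan higher (11% of all genes). Hdc, which makes histamine, stood at 2.55, 3.82 and 3.198 CPM in the controls and 15.9, 5.52 and 20.4 CPM with busulfan (log2 fold change 2.12, adjusted p = 0.0566). Mcpt8, a protease of mouse basophils, stood at 0.638, 1.85 and 1.79 CPM in the controls and 6.13, 2.63 and 18.3 CPM with busulfan (log2 fold change 2.65, adjusted p = 0.0724). Among 12 monocyte genes, edgeR called 0, DESeq2 called 1 higher and 1 lower, and 2 higher and 1 lower had an unadjusted p under 0.05 in edgeR. Of these, 4 had busulfan higher (11% of all genes) and 1 busulfan lower (12.6%) without overlap, and the median was 0.38. Ly6c2, the antigen of inflammatory monocytes, stood at 25.5, 48.2 and 55.4 CPM in the controls and 92.1, 34.3 and 149 CPM with busulfan (log2 fold change 1.09, adjusted p = 0.208), again highest in busulfan 3 and lowest in busulfan 2. Among 17 megakaryocyte and platelet genes edgeR called 0, DESeq2 called 0 higher and 0 lower, and 0 higher and 0 lower had an unadjusted p under 0.05 in edgeR, none had groups apart, and busulfan 3 was the highest busulfan library in all 17.

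**Figure D2:**
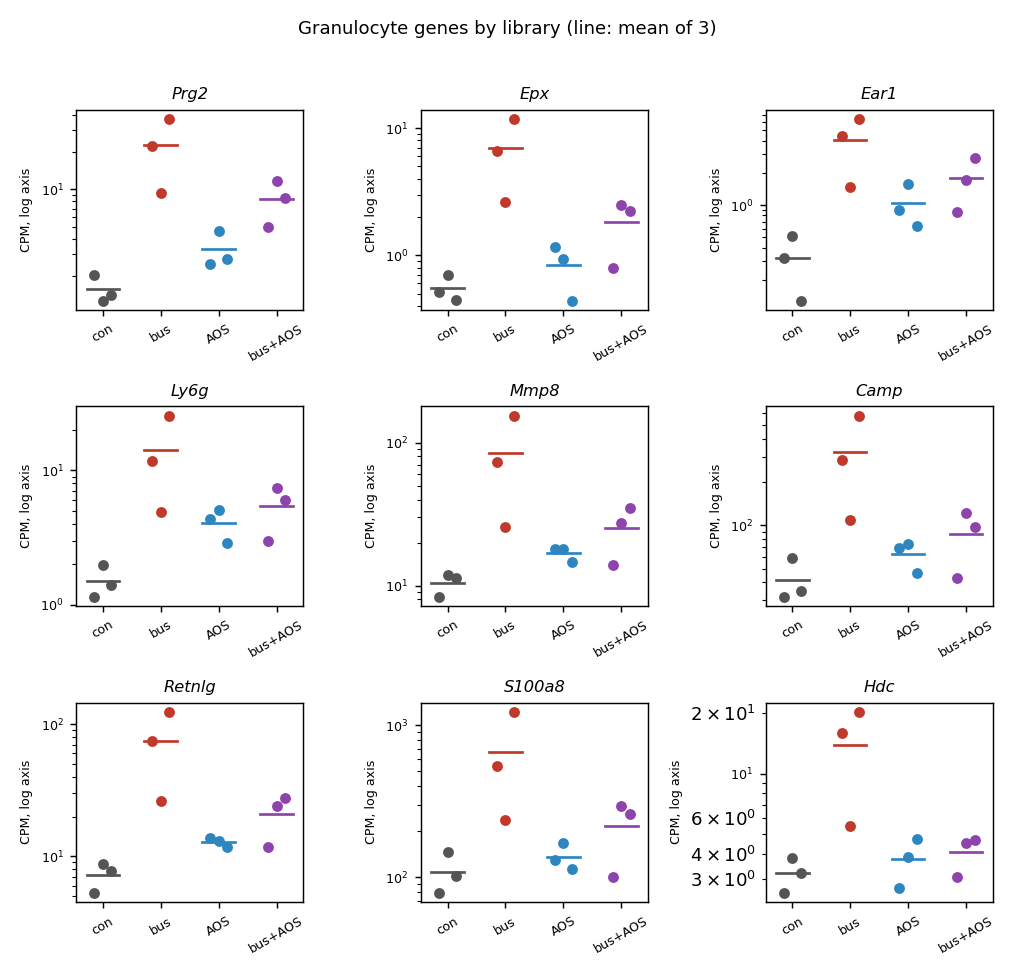
CPM on a log axis of 9 granulocyte genes in each library, with a point per library and a line at the mean of the 3 libraries of a group. Busulfan 1, 2 and 3 are drawn from left to right, and the middle point, busulfan 2, is the lowest of the 3 in all 9 genes.

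In the AOS pair the same granulocyte lists gave the following values. The median log2 fold change of busulfan with AOS minus AOS was 0.43 for the precursor list, 0.35 for mature neutrophils and 0.62 for eosinophils, and no precursor gene had groups apart there. Mmp8 stood at 17.99, 18.1 and 14.6 CPM with AOS and 13.9, 27.3 and 34.6 CPM with busulfan and AOS. Prg2 stood at 2.497, 4.63 and 2.77 CPM with AOS and 4.94, 11.7 and 8.45 CPM with busulfan and AOS. The difference between both contrasts, an interaction term of the same edgeR fit, did not pass for any of the 5 called granulocyte genes (adjusted p = 0.0998 for Retnlg, 0.113 for Ly6g, 0.143 for Mmp8, 0.114 for Prg2 and 0.179 for Epx).

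Targets of p53 changed in part. Of 29 tested, 3 were called higher (0.133% of all genes) and 0 lower. Groups were apart in 11 with busulfan higher (11% of all genes) and in 2 with busulfan lower (12.6%). The median log2 fold change was 0.19. Eda2r, which binds ectodysplasin A2 and belongs to the tumour necrosis factor receptors, stood at 1.21, 1.34 and 1.79 CPM in control 1, 2 and 3 and 5.81, 6.799 and 6.46 CPM in busulfan 1, 2 and 3 (log2 fold change 2.13 ± 0.25 (SE), adjusted p = 0.0230). It was among the most stable calls, kept in 8 of 12 fits that left out a library and 7 of the 9 other alternatives. Phlda3, which competes with the kinase Akt for membrane lipids, stood at 6.89, 4.65 and 6.203 CPM in the controls and 16.1, 13.02 and 12.2 CPM with busulfan (log2 fold change 1.22 ± 0.19 (SE), adjusted p = 0.0389). Aen, a nuclease of apoptosis, rose from 26.2, 26.4 and 28.7 to 39.5, 37.5 and 35.5 CPM (log2 fold change 0.47 ± 0.08 (SE), adjusted p = 0.0486). These calls were less stable. Of the 12 fits that left out a library, Phlda3 was kept in 2 and Aen in 1. Of the 9 other alternatives, they were kept in 4 and 3.

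Other targets stayed short of the threshold or near 0. Zmat3, an RNA-binding protein, stood at 14.6, 12.04 and 13.8 CPM in the controls and 19.7, 18.7 and 18.04 CPM with busulfan (log2 fold change 0.48, adjusted p = 0.0643). Rrm2b, the ribonucleotide reductase subunit for repair, stood at 45.7, 48.8 and 44.4 CPM in the controls and 31.1, 39.8 and 30.8 CPM with busulfan (log2 fold change -0.45, adjusted p = 0.0643). Cdip1, a promoter of cell death, stood at 51.5, 52.9 and 47.6 CPM in the controls and 39.6, 41.4 and 41.7 CPM with busulfan (log2 fold change -0.31, adjusted p = 0.0586), both with every busulfan library below every control. Cdkn1a, Mdm2 and Bax, textbook targets outside the naming rule, were chosen after their values were seen. Cdkn1a, the cell cycle inhibitor p21, stood at 2.23, 4.84 and 4.796 CPM in the controls and 6.83, 14.8 and 6.65 CPM with busulfan (log2 fold change 1.25, adjusted p = 0.157), with busulfan 2 the highest. Mdm2, the ligase that degrades p53, stood at 94.2, 90.99 and 98.04 CPM in the controls and 90.8, 95.6 and 96.2 CPM with busulfan (log2 fold change -0.00, adjusted p = 0.981), with overlapping groups. Bax, which permeabilises mitochondria, stood at 44.2, 38.7 and 37.6 CPM in the controls and 54.7, 48.7 and 45.8 CPM with busulfan (log2 fold change 0.31, adjusted p = 0.0942).

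Rps27l, a ribosomal protein gene induced by p53 in human cells, lies outside the list and rose from 41.7, 37.8 and 43.7 to 58.8, 55.4 and 52.4 CPM (log2 fold change 0.43 ± 0.08 (SE), adjusted p = 0.0486). Its call was kept in 1 of 12 fits that left out a library. The windows of Aen at chr7:78895677-78895976 and of Rps27l at chr9:66946163-66946462 (GRCm38.p6, plus strand) are shown because they hold the p53 half-site, a motif with several permitted letters that is its own mirror image on the other strand, in capitals.
Aen: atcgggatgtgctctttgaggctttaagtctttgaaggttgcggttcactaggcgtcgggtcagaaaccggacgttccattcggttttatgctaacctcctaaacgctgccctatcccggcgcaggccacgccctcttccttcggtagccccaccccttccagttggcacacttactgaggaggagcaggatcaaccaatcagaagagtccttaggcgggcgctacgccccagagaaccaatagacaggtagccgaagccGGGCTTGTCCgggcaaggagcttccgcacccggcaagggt
Rps27l: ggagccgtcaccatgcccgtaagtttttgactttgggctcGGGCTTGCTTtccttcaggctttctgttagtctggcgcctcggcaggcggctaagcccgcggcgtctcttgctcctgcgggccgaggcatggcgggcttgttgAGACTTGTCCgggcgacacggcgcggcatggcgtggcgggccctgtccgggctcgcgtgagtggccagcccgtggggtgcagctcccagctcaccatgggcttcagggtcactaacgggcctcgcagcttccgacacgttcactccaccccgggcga
Aen has 1 half-site here and Rps27l has 2, while a second RefSeq window of Rps27l has none. The half-site occurs in 33.3% of the 33 windows found for the p53 list against 8.36% of all 32851 windows. The windows of Eda2r and Phlda3 hold none, which says only that these letters are not in those windows.

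In the AOS pair of groups, Eda2r was the p53 target called in both contrasts. It stood at 1.79, 1.32 and 1.197 CPM with AOS and 4.01, 4.72 and 6.53 CPM with busulfan and AOS (log2 fold change 1.82 ± 0.25 (SE), adjusted p = 0.00976), and the difference between both contrasts did not pass (log2 difference -0.31, adjusted p = 0.693). Phlda3 stood at 6.403, 4.77 and 7.18 CPM with AOS and 9.08, 9.96 and 11.5 CPM with busulfan and AOS (log2 fold change 0.74, adjusted p = 0.0508). Aen stood at 29.97, 27.1 and 31.8 CPM with AOS and 31.8, 27.7 and 31.7 CPM with busulfan and AOS (log2 fold change 0.04, adjusted p = 0.822). Neither passed there, and the differences between the contrasts did not pass either (adjusted p = 0.409 and 0.114).

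Genes for the repair of crosslinks and for conjugating alkylating drugs held no call. Among 30 Fanconi and crosslink repair genes, edgeR called 0 and DESeq2 called 2 higher and 0 lower. In edgeR 5 higher (9.1% of all genes) and 0 lower (11.5%) had an unadjusted p under 0.05. Groups were apart in 5 with busulfan higher (11% of all genes) and in 2 with busulfan lower (12.6%). Rad51c, a protein of homologous recombination, stood at 5.23, 5.42 and 6.08 CPM in the controls and 12.4, 7.44 and 9.62 CPM with busulfan (log2 fold change 0.82, adjusted p = 0.0724). Dclre1b, the nuclease Apollo, stood at 3.45, 4.59 and 7.74 CPM in the controls and 11.3, 9.301 and 11.2 CPM with busulfan (log2 fold change 1.01, adjusted p = 0.104). Among 29 glutathione and antioxidant genes, edgeR called 0 and DESeq2 called 0 higher and 0 lower. In edgeR 4 higher (9.1% of all genes) and 2 lower (11.5%) had an unadjusted p under 0.05. Groups were apart in 7 with busulfan higher (11% of all genes) and in 2 with busulfan lower (12.6%). Gpx1, a glutathione peroxidase that red cells hold in quantity, stood at 1051, 802 and 1109 CPM in the controls and 1413, 1283 and 1291 CPM with busulfan (log2 fold change 0.43, adjusted p = 0.156). Gsta3, an enzyme that joins glutathione to drugs, stood at 9.703, 9.18 and 8.44 CPM in the controls and 7.09, 5.71 and 4.24 CPM with busulfan (log2 fold change -0.68, adjusted p = 0.162).

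Fasting and glucocorticoid response genes held 4 calls, all higher, and these 4 genes had log2 fold changes below 0 in the AOS pair. This list too was chosen with earlier results known, so its 4 calls cannot show that it stands out. Of 20, 4 were called higher (0.133% of all genes) and 0 lower. Groups were apart in 10 with busulfan higher (11% of all genes) and in 1 with busulfan lower (12.6%). The median log2 fold change was 0.34. The glucocorticoid half-site AGAACA occurs in 14.8% of the 27 promoter windows found for the list against 19.0% of all 32851 windows. It is in none of the windows of the 4 called genes. Pdk4, a kinase that keeps pyruvate out of the citric acid cycle, stood at 6.703, 5.48 and 5.76 CPM in control 1, 2 and 3 and 17.9, 16.9 and 20.8 CPM in busulfan 1, 2 and 3 (log2 fold change 1.63 ± 0.21 (SE), adjusted p = 0.0248). Errfi1, a brake on the epidermal growth factor receptor, stood at 19.6, 21.5 and 14.5 CPM in the controls and 60.2, 50.5 and 59.8 CPM with busulfan (log2 fold change 1.61 ± 0.21 (SE), adjusted p = 0.0248). Ddit4, an inhibitor of the growth kinase mTORC1, rose from 38.6, 33.96 and 32.9 to 74.7, 73.5 and 63.8 CPM (log2 fold change 1.01 ± 0.14 (SE), adjusted p = 0.0248). Per1, a clock gene that glucocorticoids induce, rose from 28.5, 35.4 and 29.9 to 61.7, 47.8 and 63.4 CPM (log2 fold change 0.88 ± 0.13 (SE), adjusted p = 0.0299).

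Here busulfan 2 was close to the other busulfan libraries for Pdk4 and Ddit4, and in each of the 4 genes every busulfan library lay above every control. Tsc22d3, the glucocorticoid-induced leucine zipper, did not pass and stood at 119, 96.4 and 112 CPM in the controls and 195, 175 and 147 CPM with busulfan (log2 fold change 0.66, adjusted p = 0.0653). Angptl4, an inhibitor of lipoprotein lipase, stood at 12.8, 12.6 and 13.7 CPM in the controls and 18.3, 17.4 and 19.4 CPM with busulfan (log2 fold change 0.49, adjusted p = 0.0852).

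In the AOS pair the order of the groups was turned for these 4 genes. Pdk4 stood at 13.6, 8.41 and 13.9 CPM with AOS and 5.81, 7.34 and 8.69 CPM with busulfan and AOS (log2 fold change -0.71, adjusted p = 0.0646). Errfi1 stood at 30.2, 22.97 and 33.9 CPM with AOS and 12.3, 16.7 and 20.7 CPM with busulfan and AOS (log2 fold change -0.81, adjusted p = 0.0466). Ddit4 stood at 57.5, 47.5 and 57.5 CPM with AOS and 26.8, 21.1 and 32.2 CPM with busulfan and AOS (log2 fold change -1.02, adjusted p = 0.0113). Per1 stood at 37.7, 38.0 and 44.1 CPM with AOS and 27.9, 25.3 and 32.4 CPM with busulfan and AOS (log2 fold change -0.48, adjusted p = 0.0579). Errfi1 and Ddit4 fell there, Pdk4 and Per1 did not pass, and the groups overlapped only in Pdk4, where busulfan with AOS 3 lay above AOS 2. The difference between both contrasts passed for Ddit4 (-2.03 ± 0.20 on the log2 scale, adjusted p = 0.00907), Errfi1 (-2.42 ± 0.29, adjusted p = 0.0114), Pdk4 (-2.34 ± 0.29, adjusted p = 0.0116) and Per1 (-1.37 ± 0.19, adjusted p = 0.0156). It also passed for Tsc22d3 (-2.01 ± 0.21, adjusted p = 0.00907), which fell in the AOS pair (log2 fold change -1.35, adjusted p = 0.00528). Over all genes the difference passed for 73 of 15079 (0.484%).

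**Figure D3:**
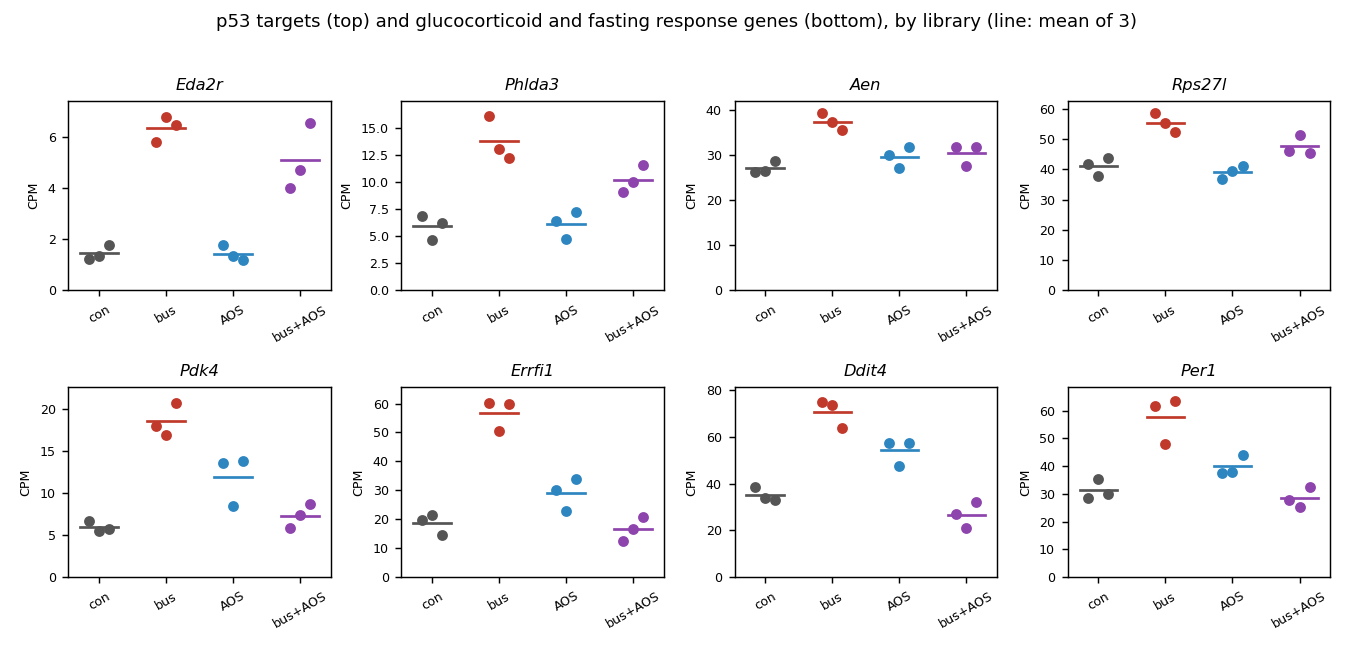
CPM of Eda2r, Phlda3, Aen and Rps27l (upper row) and 4 fasting and glucocorticoid response genes (lower row) in each library, with a point per library and a line at the mean of the 3 libraries of a group. In the lower row the busulfan libraries are the highest of the 4 groups and those of busulfan with AOS lie mostly below those of AOS, while Eda2r is high in both groups given busulfan.

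Heat shock chaperones, which answer stress and handling within minutes, held no call with busulfan alone and included 7 genes that fell in the AOS pair. Among 19 genes edgeR called 0. DESeq2 called 8 higher and 0 lower, where it called 378 genes higher in total. In edgeR 12 higher and 0 lower had an unadjusted p under 0.05, as had 9.1% of all genes with busulfan higher. In 4 the groups did not overlap, with busulfan higher (11% of all genes), and the median was 0.53. In the AOS pair 7 of the 19 were called lower, where 520 of all 15079 genes were called lower. There 17 had groups apart with busulfan and AOS lower (17.0% of all genes), and the median was -0.88. Busulfan 1 was the highest and busulfan 3 the lowest busulfan library in all 19. Hspb1, a small heat shock protein, stood at 8.94, 5.93 and 9.59 CPM in the controls and 31.7, 16.5 and 14.6 CPM with busulfan (log2 fold change 1.36, adjusted p = 0.0667). Hspe1, the mitochondrial cochaperonin, stood at 127, 113 and 140.0 CPM in the controls and 261, 170.0 and 158 CPM with busulfan (log2 fold change 0.63, adjusted p = 0.0816). The 19 genes took 0.754, 0.726 and 1.11% of counts in the controls, 1.55, 1.09 and 0.867% with busulfan, 0.846, 0.940 and 1.13% with AOS and 0.520, 0.481 and 0.502% with busulfan and AOS. Cirbp, an RNA-binding protein that rises in the cold, stood at 36.6, 40.02 and 24.6 CPM in the controls and 19.03, 23.7 and 23.4 CPM with busulfan (log2 fold change -0.61, adjusted p = 0.139), every busulfan library below every control, and at 37.9, 27.1 and 21.98 CPM with AOS and 66.5, 63.98 and 65.5 CPM with busulfan and AOS. The part of handling in the fasting and glucocorticoid result was not tested.

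Among 19 genes of the circadian clock, edgeR called Per1 alone, higher (0.133% of all genes), while DESeq2 called 1 higher and 3 lower. In edgeR 8 had an unadjusted p under 0.05 with busulfan lower (11.5% of all genes). In the list, 8 had groups apart with busulfan lower (12.6% of all genes) and 1, Per1, with busulfan higher (11%). Dbp, an output gene of the clock, stood at 8.43, 9.43 and 7.23 CPM in the controls and 3.58, 6.29 and 3.55 CPM with busulfan (log2 fold change -0.90, adjusted p = 0.0943). Tef stood at 43.9, 43.2 and 39.2 CPM in the controls and 30.02, 29.4 and 23.7 CPM with busulfan (log2 fold change -0.60, adjusted p = 0.0566). The repressor Cry2 stood at 13.5, 15.04 and 12.9 CPM in the controls and 10.9, 10.97 and 9.88 CPM with busulfan (log2 fold change -0.39, adjusted p = 0.0727). Busulfan 2 and the other busulfan libraries gave similar values for Tef and Cry2. The hour of sampling is not stated in the labels.

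B cell identity genes had log2 fold changes below 0, and the follicular and marginal zone set, which was mixed in sign, held 2 calls. Among 18 B cell identity genes edgeR called 0. DESeq2 called 0 higher and 8 lower, where it called 524 genes lower in total. In edgeR 0 higher and 14 lower had an unadjusted p under 0.05, as had 11.5% of all genes with busulfan lower. All 18 had a log2 fold change below 0, 6 had groups apart with busulfan lower (12.6% of all genes), and the median was -0.42. Ralgps2, a guanine exchange factor, stood at 292, 291 and 244 CPM in the controls and 159, 219.9 and 154 CPM with busulfan (log2 fold change -0.63, adjusted p = 0.0586). Cd40, the receptor for T cell help, stood at 51.01, 48.5 and 37.4 CPM in the controls and 31.4, 35.1 and 27.9 CPM with busulfan (log2 fold change -0.54, adjusted p = 0.0643). Pax5, the factor that fixes B cell identity, stood at 215, 239 and 213 CPM in the controls and 156, 195 and 139.5 CPM with busulfan (log2 fold change -0.45, adjusted p = 0.0931). Busulfan 2 was the highest busulfan library in 15 of the 18 genes and nearest to the controls.

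Of 17 follicular and marginal zone B cell genes, 2 were called lower (0.338% of all genes) and 5 had groups apart in that direction (12.6%). In 12 the log2 fold change was below 0 and in 5 above, with a median of -0.19. Fcer2a, the IgE receptor CD23 of follicular B cells, fell from 325, 289 and 228 to 108, 184 and 106 CPM (log2 fold change -1.08 ± 0.20 (SE), adjusted p = 0.0494). Cd55, which stops complement on the cell surface, fell from 422, 402 and 391 to 176, 262 and 172 CPM (log2 fold change -0.99 ± 0.14 (SE), adjusted p = 0.0248). Zfp318, which B cells need to make IgD, lies outside the list and fell from 179, 169.6 and 184 to 94.5, 126 and 88.4 CPM (log2 fold change -0.79 ± 0.13 (SE), adjusted p = 0.0436). Neither Fcer2a nor Zfp318 passed without control 1, control 2, busulfan 1 or busulfan 3.

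Antigen presentation by class II molecules held 1 call, lower (0.338% of all genes), among 13 genes. In 3 the groups were apart with busulfan lower (12.6% of all genes). H2-Oa, a chain of the DO molecule that curbs peptide loading in B cells, fell from 54.3, 56.5 and 52.4 to 37.4, 30.6 and 24.3 CPM (log2 fold change -0.82 ± 0.14 (SE), adjusted p = 0.0436). Its call was kept in 2 of 12 fits that left out a library. H2-Ob, the partner of H2-Oa, stood at 417, 447 and 349 CPM in the controls and 235, 311 and 205 CPM with busulfan (log2 fold change -0.69, adjusted p = 0.0607). The master regulator Ciita stood at 161, 185 and 159 CPM in the controls and 129.7, 138 and 97.6 CPM with busulfan (log2 fold change -0.46, adjusted p = 0.0933), both with every busulfan library below every control. H2-Aa, a chain of the class II molecule itself, had overlapping groups at 1393, 1472 and 1121 CPM in the controls and 1152, 1145 and 845 CPM with busulfan (log2 fold change -0.34, adjusted p = 0.202).

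Germinal centre genes, which B cells use while they mutate their antibodies, did not share this direction. Among 12 genes edgeR called 0 and DESeq2 called 1 higher and 0 lower. In edgeR 4 higher (9.1% of all genes) and 0 lower (11.5%) had an unadjusted p under 0.05. Groups were apart in 4 with busulfan higher (11% of all genes) and in 0 with busulfan lower. S1pr2, a receptor that keeps B cells inside the germinal centre, stood at 13.3, 11.8 and 13.9 CPM in the controls and 16.4, 22.7 and 16.6 CPM with busulfan (log2 fold change 0.51, adjusted p = 0.226). Among 15 plasma cell genes edgeR called 0, DESeq2 called 1 higher and 0 lower, and 4 higher and 1 lower had an unadjusted p under 0.05 in edgeR. The groups did not overlap in 1 of them, with busulfan higher (11% of all genes). This was Creld2, a protein of the stressed endoplasmic reticulum, at 27.1, 25.7 and 33.8 CPM in the controls and 55.9, 39.6 and 44.0 CPM with busulfan (log2 fold change 0.69, adjusted p = 0.0689).

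T cell genes had 1 call, lower (0.338% of all genes), among 21. Rasgrp1, which activates Ras below the T cell receptor, fell from 150.1, 161 and 130.3 to 75.4, 101 and 70.8 CPM (log2 fold change -0.84 ± 0.14 (SE), adjusted p = 0.0436). Its call was kept in 3 of 12 fits that left out a library. The list had a median of -0.36 and 2 genes with groups apart, both with busulfan lower, which is below the 12.6% of all genes. Busulfan 3 was the lowest busulfan library in all 21. Tcf7, a factor of naive T cells, stood at 145, 172 and 100.3 CPM in the controls and 98.99, 102 and 72.99 CPM with busulfan (log2 fold change -0.61, adjusted p = 0.145). Cd3e, a chain of the receptor complex and a marker fixed for spleen, stood at 34.6, 42.9 and 26.3 CPM in the controls and 37.4, 29.3 and 24.2 CPM with busulfan (log2 fold change -0.19, adjusted p = 0.645), both with overlap. Outside the list, Cd7, a surface protein of T and NK cells, fell from 31.2, 37.1 and 30.8 to 23.2, 19.1 and 19.7 CPM (log2 fold change -0.68 ± 0.12 (SE), adjusted p = 0.0436). Il18r1, a chain of the interleukin 18 receptor, fell from 30.9, 29.5 and 29.2 to 17.2, 18.8 and 19.8 CPM (log2 fold change -0.69 ± 0.12 (SE), adjusted p = 0.0436). Dpp4, the peptidase CD26, fell from 121, 135 and 112 to 89.8, 94.6 and 82.3 CPM (log2 fold change -0.46 ± 0.09 (SE), adjusted p = 0.0494).

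NK and cytotoxic genes had the lowest median of the lymphocyte lists. Of 22, 1 was called lower (0.338% of all genes). Groups were apart in 11 with busulfan lower (12.6% of all genes) and in 1 with busulfan higher (11%). The median log2 fold change was -0.75. Klrd1, the receptor CD94, fell from 12.8, 15.2 and 18.7 to 8.11, 6.93 and 9.69 CPM (log2 fold change -0.91 ± 0.16 (SE), adjusted p = 0.0463). Eomes, a factor of NK cell maturation, stood at 9.96, 10.1 and 11.4 CPM in the controls and 5.49, 6.16 and 7.03 CPM with busulfan (log2 fold change -0.75, adjusted p = 0.0586). Fasl, a death ligand, stood at 2.94, 2.87 and 3.58 CPM in the controls and 1.09, 1.35 and 1.33 CPM with busulfan (log2 fold change -1.31, adjusted p = 0.0623). Ncr1, the activating receptor NKp46, stood at 9.703, 11.2 and 19.5 CPM in the controls and 5.75, 5.39 and 6.27 CPM with busulfan (log2 fold change -1.21, adjusted p = 0.109). These 3 did not pass, and no busulfan library reached a control.

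The NK genes were mostly lower in the AOS pair as well. There the median was -0.60 and 15 of the 22 had groups apart with busulfan and AOS lower (17.0% of all genes). Klrd1 stood at 17.9, 14.04 and 15.7 CPM with AOS and 10.6, 10.3 and 9.99 CPM with busulfan and AOS (log2 fold change -0.63 ± 0.16 (SE), adjusted p = 0.0471) and passed in both contrasts. Its call with busulfan alone was kept in 1 of 12 fits that left out a library. Ncr1 stood at 13.1, 8.805 and 24.0 CPM with AOS and 6.61, 5.24 and 4.38 CPM with busulfan and AOS (log2 fold change -1.50, adjusted p = 0.0398) and passed there. Klra4, a receptor of a family of near-identical copies, stood at 3.57, 2.87 and 6.01 CPM in the controls and 1.79, 1.67 and 1.203 CPM with busulfan (log2 fold change -1.41, adjusted p = 0.0840). It stood at 4.23, 2.71 and 5.73 CPM with AOS and 1.67, 1.66 and 0.925 CPM with busulfan and AOS (log2 fold change -1.57, adjusted p = 0.0382). With DESeq2, 8 of the 22 were called lower with busulfan, where it called 524 genes lower in total.

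Receptors coupled to G proteins that guide lymphocytes had 1 call, lower (0.338% of all genes), among 18. In 7 the log2 fold change was above 0 and in 11 below, 1 had groups apart with busulfan higher (11% of all genes) and 4 with busulfan lower (12.6%), and the median was -0.25. Gpr132, a receptor for acid and oxidised lipids, fell from 58.7, 65.6 and 48.9 to 17.7, 24.95 and 13.7 CPM (log2 fold change -1.62 ± 0.24 (SE), adjusted p = 0.0299), with every busulfan library far below every control. Its call was kept in 5 of 12 fits that left out a library. Gpr174, a receptor for lysophosphatidylserine, stood at 84.1, 88.9 and 79.7 CPM in the controls and 51.6, 63.1 and 39.3 CPM with busulfan (log2 fold change -0.71, adjusted p = 0.0567). S1pr4, a sphingosine phosphate receptor, stood at 61.9, 64.4 and 49.4 CPM in the controls and 42.2, 43.3 and 37.9 CPM with busulfan (log2 fold change -0.51, adjusted p = 0.0643). P2ry10b, a receptor gene outside the list, fell from 25.6, 26.6 and 21.7 to 14.6, 16.7 and 13.9 CPM (log2 fold change -0.71 ± 0.12 (SE), adjusted p = 0.0455).

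Enzymes that build sialylated and lactosyl glycans had 3 calls among 24, all lower (0.338% of all genes). As the list was chosen with earlier results of these data known, the 3 calls cannot show that it stands out. Cmah, which turns the sialic acid Neu5Ac into Neu5Gc, a step that humans lack, fell from 414, 431 and 401 to 164, 218 and 214 CPM (log2 fold change -1.06 ± 0.15 (SE), adjusted p = 0.0248). B3gnt5, which starts lacto-series glycolipids, fell from 115, 104 and 100.1 to 44.4, 75.8 and 49.9 CPM (log2 fold change -0.91 ± 0.16 (SE), adjusted p = 0.0486). St8sia4, which makes polysialic acid, fell from 122, 119 and 119.8 to 68.6, 92.2 and 81.1 CPM (log2 fold change -0.58 ± 0.10 (SE), adjusted p = 0.0486). Of 12 fits that left out a library, 7 kept the call of Cmah, 1 that of B3gnt5 and 1 that of St8sia4.

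The lower direction did not hold for the whole glycan list. St6gal1, which adds sialic acid to N-glycans and is abundant in B cells, did not pass at 178, 178 and 175 CPM in the controls and 118, 146 and 113 CPM with busulfan (log2 fold change -0.49, adjusted p = 0.0586), and St3gal5, which makes the ganglioside GM3, stood at 165, 87.5 and 161 CPM in the controls and 203, 206 and 234 CPM with busulfan (log2 fold change 0.64, adjusted p = 0.175) with busulfan higher. In the list, 14 genes had a log2 fold change above 0 and 10 below, and 2 had groups apart with busulfan higher (11% of all genes) and 5 with busulfan lower (12.6%). Gcnt1, which branches O-glycans and lies outside the list, fell from 104, 97.9 and 98.8 to 60.7, 75.2 and 77.7 CPM (log2 fold change -0.49 ± 0.09 (SE), adjusted p = 0.0486). In the AOS pair none of these 4 enzymes was called, with Cmah at 394, 316 and 425 CPM with AOS and 367, 266 and 326 CPM with busulfan and AOS (log2 fold change -0.24, adjusted p = 0.324). B3gnt5 stood at 107, 102 and 109.9 CPM with AOS and 120.3, 99.8 and 109 CPM with busulfan and AOS (log2 fold change 0.04, adjusted p = 0.900).

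**Figure D4:**
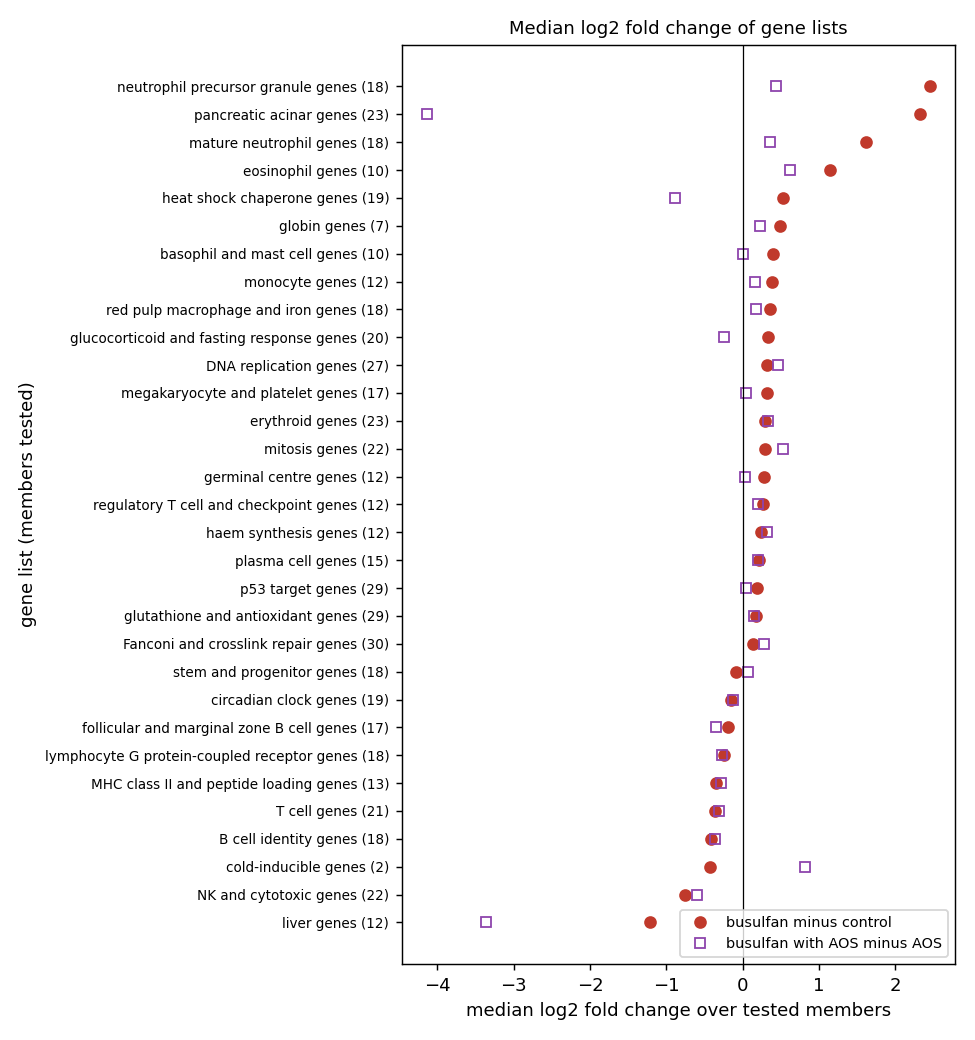
Median log2 fold change over the tested members of 31 gene lists (rows, with the number of members) for busulfan minus control (filled circles) and busulfan with AOS minus AOS (open squares). The lists shown are those whose median for busulfan minus control kept its sign under every alternative, and the median over all genes was -0.01. Neutrophil and eosinophil genes lie farthest to the right among lists of blood cells and NK genes farthest to the left.

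Macrophage genes of the red pulp, which recycle iron from old red cells, held no call. Among 18 genes edgeR called 0 and DESeq2 called 1 higher and 0 lower. In edgeR 7 higher (9.1% of all genes) and 0 lower (11.5%) had an unadjusted p under 0.05. In 10 the groups did not overlap with busulfan higher (11% of all genes), and the median was 0.35. Ftl1, the ferritin light chain, stood at 1816, 1673 and 1826 CPM in the controls and 2561, 2101 and 2031 CPM with busulfan (log2 fold change 0.33, adjusted p = 0.135). Vcam1, an adhesion molecule of these macrophages, stood at 283, 267 and 350.2 CPM in the controls and 484, 428 and 468 CPM with busulfan (log2 fold change 0.62, adjusted p = 0.178). The complement chain C1qa stood at 93.5, 87.9 and 96.3 CPM in the controls and 157, 119 and 129 CPM with busulfan (log2 fold change 0.54, adjusted p = 0.174). Busulfan 1 was the highest busulfan library in 12 of the 18. Among 8 marginal zone macrophage genes edgeR called 0, DESeq2 called 0 higher and 1 lower, and 0 higher and 1 lower had an unadjusted p under 0.05 in edgeR. In 3 the log2 fold change was above 0 and in 5 below. Groups were apart in 2 with busulfan higher (11% of all genes) and in 1 with busulfan lower (12.6%). That 1 gene, Cd209d, a C-type lectin, stood at 7.15, 5.61 and 8.12 CPM in the controls and 3.32, 1.99 and 2.28 CPM with busulfan (log2 fold change -1.46, adjusted p = 0.0586), with every busulfan library below every control.

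Genes of cell division had log2 fold changes above 0, without a call. Among 27 DNA replication genes edgeR called 0 and DESeq2 called 0 higher and 0 lower. In edgeR 11 higher (9.1% of all genes) and 0 lower (11.5%) had an unadjusted p under 0.05. All 27 had a log2 fold change above 0 (48.7% of all genes), 13 had groups apart with busulfan higher (11%), and the median was 0.32. Rfc3, a subunit of the clamp loader, stood at 32.9, 30.3 and 31.3 CPM in the controls and 39.5, 37.01 and 37.2 CPM with busulfan (log2 fold change 0.27, adjusted p = 0.142). Cdc45, a subunit of the replicative helicase, stood at 39.1, 31.2 and 46.9 CPM in the controls and 48.8, 49.5 and 55.5 CPM with busulfan (log2 fold change 0.39, adjusted p = 0.178). Among 22 mitosis genes edgeR called 0 and DESeq2 called 0 higher and 0 lower. In edgeR 3 higher (9.1% of all genes) and 0 lower (11.5%) had an unadjusted p under 0.05. All 22 were above 0, with 4 apart (11% of all genes) and a median of 0.30, and busulfan 3 was the highest busulfan library in all 22. Plk1, a kinase of the spindle, stood at 51.9, 51.99 and 62.03 CPM in the controls and 67.4, 70.6 and 86.3 CPM with busulfan (log2 fold change 0.43, adjusted p = 0.127). In the AOS pair the medians were 0.46 and 0.53, with 16 of 27 and 18 of 22 genes apart in the same direction (14.6% of all genes).

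Genes of red cell precursors held no call. Among 23 erythroid genes edgeR called 0 and DESeq2 called 1 higher and 0 lower. In edgeR 3 higher (9.1% of all genes) and 0 lower (11.5%) had an unadjusted p under 0.05. Of the 23, 22 had a log2 fold change above 0 (48.7% of all genes). Groups were apart in 5 with busulfan higher (11% of all genes), and the median was 0.30. Epor, the erythropoietin receptor, stood at 67.5, 61.1 and 76.5 CPM in the controls and 87.2, 79.8 and 93.9 CPM with busulfan (log2 fold change 0.35, adjusted p = 0.188). Klf1, the factor that turns on adult globin genes, stood at 201, 166 and 241 CPM in the controls and 286, 256 and 252 CPM with busulfan (log2 fold change 0.38, adjusted p = 0.288). Alas2, the first enzyme of haem synthesis in red cells, stood at 1079, 920.0 and 1224 CPM in the controls and 1311, 1423 and 1459 CPM with busulfan (log2 fold change 0.38, adjusted p = 0.266). The globin genes took 7.45, 5.56 and 6.55% of counts in the controls and 8.997, 8.66 and 8.42% with busulfan.

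Among 18 stem and progenitor genes edgeR called 0, DESeq2 called 1 higher and 0 lower, and 1 higher and 1 lower had an unadjusted p under 0.05 in edgeR. Myb, a factor of dividing blood progenitors, stood at 51.6, 57.98 and 69.3 CPM in the controls and 76.8, 78.8 and 103 CPM with busulfan (log2 fold change 0.53, adjusted p = 0.0727), with every busulfan library above every control. Kit, the receptor of stem cell factor, was chosen after its values were seen and stood at 30.4, 40.3 and 47.4 CPM in the controls and 36.98, 35.7 and 40.3 CPM with busulfan (log2 fold change -0.06, adjusted p = 0.820). Over the list, 6 genes had a log2 fold change above 0 and 12 below.

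Per length, the globin genes stood highest in both groups. The 5 genes with the highest mean FPKM, the authors' deposited values scaled to gene length and library size, in controls were Hba-a1, Hbb-b1, Hbb-b2, Hbb-bs and Hba-a2, and with busulfan Hba-a1, Hbb-b1, Hbb-b2, Hba-a2 and Eef1a1, an elongation factor. Hbb-bs differed between single libraries of a group. It stood at 1337, 26.8 and 9368 CPM in control 1, 2 and 3 and 2.11, 1.54 and 1.52 CPM in busulfan 1, 2 and 3 (log2 fold change -11.01, adjusted p = 0.0692). In the other libraries it stood at 314, 9951 and 1147 CPM with AOS and 841, 14542 and 1271 CPM with busulfan and AOS. Hbb-bt was high in the same libraries, at 493, 14.8 and 3344 CPM in the controls and 2.43, 2.24 and 4.18 CPM with busulfan and at 102, 3043 and 318 CPM with AOS and 245, 3972 and 374 CPM with busulfan and AOS. Hbb-b1 stood at 20050.0, 16793 and 11105 CPM in the controls and 28409.6, 28415 and 27443 CPM with busulfan (log2 fold change 0.81, adjusted p = 0.121). These beta-globin genes are near-identical copies or alleles, and the files do not show how shared reads were assigned.

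Several other genes with large differences and no call were high in 1 or 2 libraries of a group. Among the 20 such genes with the largest log2 fold changes, Tapbp, the tapasin of class I peptide loading, stood at 0.319, 0.892 and 0.320 CPM in the controls and 0.511, 57.5 and 4.81 CPM with busulfan (log2 fold change 5.34, adjusted p = 0.0895). Trim25, a ligase of antiviral signalling, stood at 0.638, 0.956 and 1.28 CPM in the controls and 1.02, 58.2 and 5.32 CPM with busulfan (log2 fold change 4.48, adjusted p = 0.168). Gdpd3, a phosphodiesterase, stood at 61.2, 119 and 6.84 CPM in the controls and 1.02, 0.834 and 0.570 CPM with busulfan (log2 fold change -6.26, adjusted p = 0.0943). Pde4d, which breaks down cyclic AMP, stood at 366, 55.9 and 288 CPM in the controls and 45.2, 38.4 and 39.1 CPM with busulfan (log2 fold change -2.53, adjusted p = 0.103), low in control 2 as well as in the busulfan libraries. Adipoq, the fat cell hormone adiponectin, stood at 28.2, 1.85 and 0.959 CPM in the controls and 3.77, 1.28 and 0.443 CPM with busulfan (log2 fold change -2.49, adjusted p = 0.255), high only in control 1 of these 6 libraries. Cpb1, a pancreatic carboxypeptidase, stood at 0.0638, 3.19 and 0.0640 CPM in the controls and 34.6, 4.23 and 0.760 CPM with busulfan (log2 fold change 3.57, adjusted p = 0.314), highest in busulfan 1. Alb, the albumin of liver, had overlapping groups at 60.2, 199 and 22.1 CPM in the controls and 77.5, 32.5 and 19.7 CPM with busulfan (log2 fold change -1.12, adjusted p = 0.421), and Ins2, insulin, was at 0 counts in all 6 except 0.0633 CPM in busulfan 3, which is under 3 counts.

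The remaining called genes are given by direction and then by what each is known to do, an order chosen after the calls were seen. Ckb, the brain form of creatine kinase, stood at 13.6, 9.94 and 10.9 CPM in control 1, 2 and 3 and 34.5, 30.3 and 32.03 CPM in busulfan 1, 2 and 3 (log2 fold change 1.49 ± 0.25 (SE), adjusted p = 0.0436). Ptgr1, which reduces reactive carbonyls, rose from 7.09, 9.303 and 7.23 to 14.1, 12.96 and 20.9 CPM (log2 fold change 1.02 ± 0.19 (SE), adjusted p = 0.0494). Rhob, a small GTPase induced by DNA damage, rose from 32.9, 28.4 and 28.01 to 51.03, 44.0 and 49.2 CPM (log2 fold change 0.69 ± 0.10 (SE), adjusted p = 0.0248). Litaf, an endosomal protein first found as induced by lipopolysaccharide and by p53 in human cells, rose from 34.8, 32.9 and 37.8 to 58.8, 47.7 and 63.7 CPM (log2 fold change 0.69 ± 0.10 (SE), adjusted p = 0.0290). Inka2, an inhibitor of a p21-activated kinase, rose from 4.09, 4.21 and 3.65 to 8.88, 6.99 and 7.47 CPM. Sap30, a subunit of the Sin3 corepressor, rose from 11.2, 11.2 and 11.96 to 16.2, 15.97 and 16.97 CPM.

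Several of the remaining genes that fell code for proteins that act on DNA or chromatin. Pou2f1, the octamer-binding factor Oct-1, fell from 84.1, 89.7 and 85.6 to 61.1, 65.2 and 60.8 CPM (log2 fold change -0.47 ± 0.06 (SE), adjusted p = 0.0248). Fli1, an ETS factor of blood cells, fell from 108, 114 and 99.4 to 77.98, 87.1 and 80.3 CPM (log2 fold change -0.39 ± 0.07 (SE), adjusted p = 0.0494). Chd2, a chromatin remodeller, fell from 302, 328 and 292 to 228, 243 and 216 CPM. Rfx3, Zxdb, Zfp758 and Zbtb37, all DNA-binding proteins, had log2 fold changes of -0.41, -0.41, -0.39 and -0.51. Zc3h6, a CCCH zinc finger protein, fell further, from 16.5, 19.2 and 14.5 to 5.301, 6.54 and 8.99 CPM (log2 fold change -1.27 ± 0.18 (SE), adjusted p = 0.0248).

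Other genes that fell act in signalling. Arhgef3, an activator of the GTPase RhoA, fell from 113, 114 and 108 to 62.7, 77.03 and 67.7 CPM (log2 fold change -0.69 ± 0.08 (SE), adjusted p = 0.0230), and was, with Eda2r, the call kept in most fits, 8 of 12 that left out a library and 7 of the 9 others. Ripor2, which restrains RhoA in lymphocytes, fell from 207, 230.2 and 189 to 122, 142 and 123 CPM (log2 fold change -0.69 ± 0.10 (SE), adjusted p = 0.0299). Pde7a, a phosphodiesterase for cyclic AMP, fell from 222, 235 and 233 to 160.0, 186 and 153 CPM (log2 fold change -0.47 ± 0.07 (SE), adjusted p = 0.0362). Dyrk2, a kinase that acts on p53 in human cells, had a log2 fold change of -0.48, and Inpp5k, a phosphatase of membrane lipids, of -0.37.

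Further genes that fell act in transport or protein turnover. Slc30a4, a zinc transporter, had a log2 fold change of -0.53, Slc25a23, a mitochondrial carrier of ATP, of -0.61, and Vamp1, a protein of vesicle fusion, of -0.62. Fbxo32, the ubiquitin ligase subunit atrogin-1, fell from 17.6, 17.7 and 16.2 to 10.7, 11.2 and 11.1 CPM (log2 fold change -0.64 ± 0.12 (SE), adjusted p = 0.0486). Mgrn1, another ubiquitin ligase, fell from 81.97, 79.1 and 76.4 to 63.03, 66.4 and 60.9 CPM. Ctso, a cysteine protease, fell from 90.8, 95.3 and 74.6 to 56.9, 62.4 and 59.3 CPM (log2 fold change -0.55 ± 0.09 (SE), adjusted p = 0.0389). Rubcnl, which promotes autophagosome maturation, fell from 46.7, 45.2 and 40.6 to 23.2, 32.97 and 24.2 CPM.

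Among the called genes with a symbol, Syt14 and Ttbk1 fell most, and both stood at low levels. Syt14, a synaptotagmin, stood at 5.11, 3.25 and 8.38 CPM in the controls and 1.28, 0.577 and 1.58 CPM with busulfan (log2 fold change -2.27 ± 0.40 (SE), adjusted p = 0.0463). Ttbk1, a kinase of tau, stood at 1.28, 1.47 and 1.47 CPM in the controls and 0.447, 0.449 and 0.380 CPM with busulfan (log2 fold change -1.71 ± 0.26 (SE), adjusted p = 0.0299). Chic1 fell from 9.51, 12.4 and 10.3 to 5.68, 5.97 and 6.27 CPM. Others that fell were Cobll1, Crlf3, Dennd5b, Fam204a, Gm14966, Jhy, Rbm12b1, Snx30 and Wdr20, with log2 fold changes from -0.73 in Jhy to -0.37 in Crlf3.

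The called genes took mostly the same direction in the 6 libraries of the AOS pair. There 57 of the 71 had a log2 fold change of the same sign, 15 of the 20 that rose and 42 of the 51 that fell, against 59.2% of all 15079 genes. The genes were chosen on busulfan minus control, which favours larger differences there, so the sizes of both contrasts were not compared. Of the 71, 12 were called in the same direction in both contrasts, which is 16.9% of the 71 and 1.37% of the 876 genes called in the AOS pair (5.81% of all genes). These were Eda2r, which rose, and 11 that fell. Among the latter, Rbm12b1, an RNA-binding protein, stood at 85.3, 81.3 and 77.7 CPM in the controls and 56.6, 56.9 and 56.6 CPM with busulfan and at 69.1, 72.7 and 69.1 CPM with AOS and 51.8, 42.5 and 50.2 CPM with busulfan and AOS (log2 fold change -0.55, adjusted p = 0.00976). Slc25a23 stood at 27.9, 26.0 and 23.2 CPM in the controls and 17.8, 17.9 and 14.9 CPM with busulfan and at 28.9, 24.4 and 26.96 CPM with AOS and 17.1, 17.5 and 17.01 CPM with busulfan and AOS (log2 fold change -0.64, adjusted p = 0.0132). Syt14 stood at 5.25, 5.83 and 3.65 CPM with AOS and 1.603, 1.53 and 1.42 CPM with busulfan and AOS (log2 fold change -1.69, adjusted p = 0.0363). Pde7a stood at 215, 214 and 211 CPM with AOS and 158, 154 and 148 CPM with busulfan and AOS (log2 fold change -0.48, adjusted p = 0.0122), a difference close to that with busulfan alone.

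In contrast, 5 of the 71 were called in the opposite direction in the AOS pair. Besides Ddit4 and Errfi1 these were Zc3h6, Fam204a and Ctso. Zc3h6 stood at 11.3, 9.47 and 9.70 CPM with AOS and 18.9, 18.3 and 20.3 CPM with busulfan and AOS (log2 fold change 0.92 ± 0.17 (SE), adjusted p = 0.0210). Fam204a stood at 25.98, 27.1 and 26.99 CPM in the controls and 19.2, 19.7 and 17.03 CPM with busulfan and at 21.8, 19.5 and 17.4 CPM with AOS and 29.5, 29.9 and 28.2 CPM with busulfan and AOS (log2 fold change 0.58 ± 0.09 (SE), adjusted p = 0.0132). Ctso stood at 79.1, 71.8 and 70.5 CPM with AOS and 93.8, 92.4 and 92.96 CPM with busulfan and AOS (log2 fold change 0.33 ± 0.09 (SE), adjusted p = 0.0482). In Zc3h6 and Fam204a the AOS libraries without busulfan lay below the controls, and those of busulfan with AOS lay close to them. Over the 71 genes, the difference between both contrasts passed for 9 (73 of all genes, 0.484%), a count to which the choice of the genes also contributes.

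**Figure D5:**
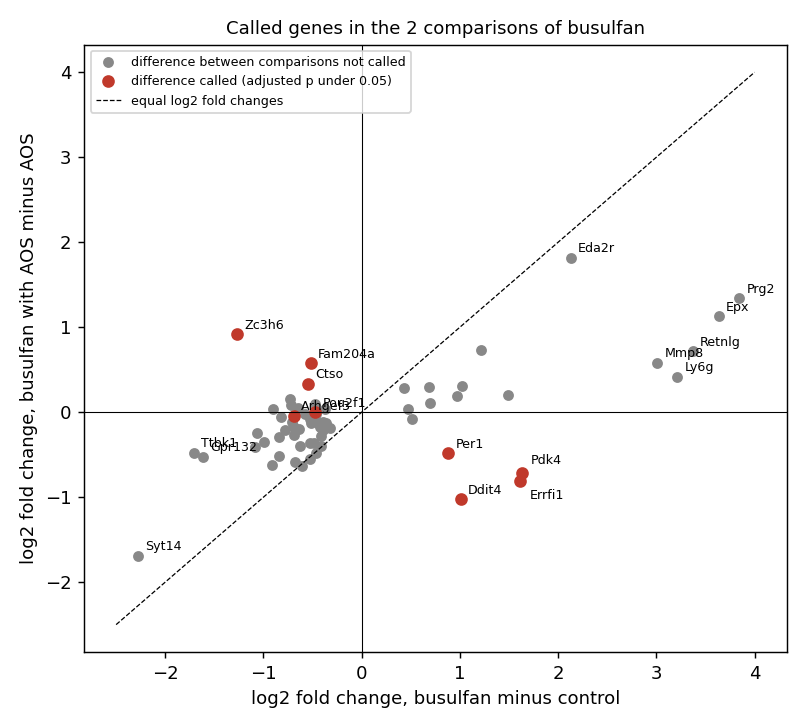
Log2 fold change of 67 of the called genes for busulfan minus control (x axis) and busulfan with AOS minus AOS (y axis), each point a gene, with red for the 9 whose difference between the contrasts passed at an adjusted p under 0.05. The dashed line marks equal changes, Eda2r lies near the line, and Pdk4, Errfi1, Ddit4, Per1, Zc3h6, Fam204a and Ctso lie in the quadrants of opposite sign.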

How the data were processed

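The authors deposited a table of expected counts per gene and of expression values read here as FPKM, since their ratio, over 1147 genes that had at least 2000 counts, deviated from the library totals by at most 0.406%. Per the submitters' processing notes the genome build was mm10. The sources used here name no aligner, counter, annotation or strand setting, so overlapping and antisense genes are uncertain. Of 19376 identifiers, 18362 were Entrez numbers, of which 18233 were matched to names in RefSeq (GRCm38.p6). The others, labelled BGIG, took 2.72 to 3.13% of counts and are counted but not named. The 8 columns of group averages were not used. Of the deposited expected counts 75.7% were whole, and all were rounded before testing.

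The 12 libraries (4 groups of 3) were fitted in edgeR 4.0.16 (R 4.3.3) with filterByExpr, TMM normalisation (factors 0.965 to 1.04) and quasi-likelihood tests over 15079 genes, with 8 residual degrees of freedom and a coefficient of biological variation of 18.9%. A fold change is the log2 difference of group means, its standard error (SE) is its size over the root of the F statistic, and the adjusted p follows Benjamini and Hochberg. The threshold for a call was an adjusted p under 0.05. CPM values are counts scaled to a library total of 1000000. The contrasts were busulfan minus control, busulfan with AOS minus AOS, and their difference. Alternatives used DESeq2 1.42.0 and limma 3.58.1, on log2 FPKM with a pseudocount of 1 or 0.1. The fit was tested on simulated data. Replicates differed beyond counting error (chi-square per degree of freedom 15.9 to 72.7), so none was a copy. Figures were drawn with matplotlib 3.10.9.

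The comparison, gene lists and motifs were chosen with earlier results of these data known. The text names called genes, up to 6 members of each list with the smallest unadjusted p, 10 uncalled genes a direction, those of largest change, at a mean of at least 5 CPM in the higher group, the fixed markers, and the 5 genes with the highest FPKM in each group. Some genes of these sets are not reported here.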

Additional observations from a re-analysis of the deposited data

Results flagged for a closer look

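In 9 of the 71 genes called for busulfan minus control, the effect of busulfan differed between mice without and with AOS, by the interaction term of the edgeR fit (adjusted p under 0.05, 73 of 15079 genes or 0.484%). The values below are busulfan with AOS minus AOS, less busulfan minus control, on the log2 scale. The difference was -2.42 for Errfi1 (adjusted p = 0.0114), -2.34 for Pdk4 (adjusted p = 0.0116), -2.03 for Ddit4 (adjusted p = 0.00907) and -1.37 for Per1 (adjusted p = 0.0156), all of which rose with busulfan alone. It was 2.18 for Zc3h6 (adjusted p = 0.0114), 1.09 for Fam204a (adjusted p = 0.0114) and 0.88 for Ctso (adjusted p = 0.0156), which fell with busulfan alone and had the opposite sign in the AOS pair. It was 0.65 for Arhgef3 (adjusted p = 0.0357) and 0.47 for Pou2f1 (adjusted p = 0.0492), which fell with busulfan alone and had log2 fold changes of -0.04 and -0.00 in the AOS pair. Arhgef3 stood at 106, 105 and 106 CPM with AOS and 104, 95.8 and 109 CPM with busulfan and AOS, and Pou2f1 at 76.0, 77.7 and 75.9 CPM with AOS and 81.3, 77.4 and 70.6 CPM with busulfan and AOS. The heat shock shares of counts differ between the same groups, and their part in these differences was not tested.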

How the results depend on the processing

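The count of genes called with busulfan moved with the processing, and the cause was not tested. It was 71, against 55 with RLE normalisation and 65 with a stricter filter. It was 42 with no filter on low counts, 0 with only the 6 libraries compared, 0 with control 1 and AOS 2 left out together, 18 and 14 with limma on FPKM at a pseudocount of 1 and 0.1, and 902 with DESeq2. Leaving out 1 library gave 0 to 470 calls. For busulfan with AOS minus AOS the 876 calls became 440 with only the 6 libraries compared and 1770 with DESeq2, and leaving out 1 library gave 28, without busulfan with AOS 2, to 913. The 73 interaction calls became 43 with no filter and 621 with DESeq2, and leaving out 1 library gave 8, without busulfan with AOS 2, to 110, without busulfan 3.

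Replicate numbers were not taken to pair the libraries. Deviations of same-numbered libraries correlated at -0.0463 to 0.171 for busulfan and control, against -0.179 to 0.199 for different numbers. For the AOS pair they correlated at -0.0742 to 0.0168 against -0.127 to 0.122. Between groups not compared, the values were 0.086 to 0.267 against -0.281 to 0.041 for control and AOS. They were 0.056 to 0.123 against -0.179 to 0.102 for busulfan and busulfan with AOS. Same-numbered values of control and AOS thus lay above all others of these groups. Whether the numbers mark a shared factor was not tested. With the replicate number as a block the counts were 10, 897 and 33.

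For the 69 called genes with a symbol, 448 of 1449 values under the 21 alternatives kept the call, 1001 kept the direction without it, and 0 reversed. The lack of reversals follows largely from the choice of genes, whose groups did not overlap. Of the medians of 31 lists, 632 of 651 values moved by less than the spread between replicates and 19 by more. These 31 are the lists whose median kept its sign under every alternative. Their stability therefore follows in part from that choice. The precursor granule median ranged from 1.69 to 2.88, that of p53 targets from 0.09 to 0.22, of fasting and glucocorticoid genes from 0.21 to 0.41 and of NK genes from -0.82 to -0.61. The other 14 lists changed the sign of the median under at least 1 alternative. Among uncalled genes, these log2 fold changes turned above 0. Over fits with 1 library left out, Adipoq ranged from -3.57 to 0.39, Alb from -1.85 to 0.081, Cd3e from -0.37 to 0.0019, Kit from -0.21 to 0.10 and Mdm2 from -0.022 to 0.035. Adipoq was 0.38 with control 1 and AOS 2 left out, and Mdm2 was 6.8e-04 with the stricter filter and 4.2e-04 with only the 6 libraries. Depth limits genes under about 0.2 CPM.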
